A study of Mus musculus with 32 samples.

Results

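The livers of 8-week-old male mice born to obese dams (MM) were compared with those of age-matched males born to chow-fed dams (CM) by RNA-seq of bulk tissue. The comparison took the 8 male libraries of that age out of 32 in the series, 4 MM and 4 CM, each from a separate mouse. The offspring of both groups were floxed controls (Reg3g-fl/+ or Reg3g-fl/fl) from a Reg3g colony on a C57BL/6J background, and which of these genotypes each mouse had is not given in the sources used here. Maternal obesity (MO) was produced by a Western-style diet given to the dams for 4 weeks before mating and throughout pregnancy and lactation, while control dams received chow. Offspring of both groups were weaned at 3 weeks and then ate chow for 5 weeks, so at 8 weeks MM and CM differed in the diet of the dam and no longer in their own. The mice were killed in the fed state and the liver was snap-frozen. The hour of killing and the litter of each mouse are not given in the sources used here. The p-values below therefore measure the spread between mice, in the main fit those of both sexes, and not the spread between dams.

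The comparison addresses what remains in the adult male liver of an exposure that ended at weaning. Liver switches between a fed programme, in which insulin acting through SREBP-1c drives lipid synthesis, and a fasting programme, in which glucagon, glucocorticoids and PPARα drive gluconeogenesis, fat release and ketogenesis. Adult liver is also sexually dimorphic, because the pulsatile growth hormone secretion of males maintains male-biased genes and represses female-biased ones. Genes of stress signalling, such as those for heat shock proteins and immediate early factors, respond to hormones and also within minutes to handling and tissue damage.

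The 8 libraries held 26726861 to 40062768 reads in the genes listed, and levels are given as CPM (read counts scaled to a common library size) after TMM scaling. Xist was at or below 0.325 CPM in all 8 (486 to 903 CPM in the female libraries) and Ddx3y was at 29.9 to 59.4 CPM (0 in the female libraries), and Alb, the defining hepatocyte transcript, was at 62380 to 83240 CPM. Library MM 2 stood apart. Its mitochondrial share of reads was 1.69% (3.59% to 5.25% in the others), its ribosomal protein share 2.22% (1.25% to 1.63%), and the islet transcript Ins2 reached 107 CPM (0.686 to 10.6). In MM 2 and, less so, CM 2, levels relative to the other libraries were lower for longer genes, with slopes on gene length of -0.377 and -0.106 against 0.0206 to 0.16. The first principal component of the 8 libraries (36.2% of the variance) placed MM 2 at 58.3 and CM 2 at 24.6, the others lay between -29.9 and -4.9, and MM and CM did not separate on it (exact permutation test, p = 0.914). Component 3 (15.8% of the variance) separated the groups without overlap (exact two-sided permutation p = 0.0286, the smallest that 4 against 4 allows, unadjusted over the 3 components tested).

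**Figure D1:**
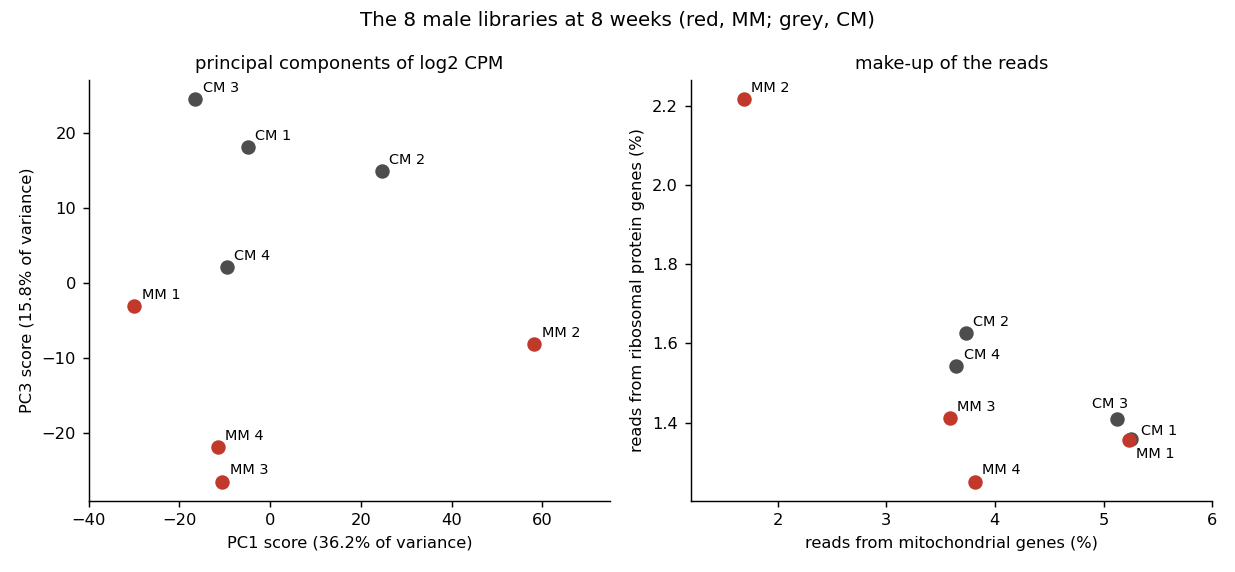
Scores of the 8 male libraries on principal components 1 and 3 of log2 CPM (left, arbitrary units) and the shares of their reads from mitochondrial and ribosomal protein genes in percent (right); each point is 1 mouse. MM 2 lies alone at the right of component 1 (58.3) and at the upper left of the read shares (1.69% and 2.22%), while component 3 has the CM libraries above the MM libraries.

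Of 14195 genes tested, 4 were called between MM and CM by edgeR's quasi-likelihood test at a Benjamini-Hochberg false discovery rate (FDR) below 0.05, which is 0.0282% of the genes, and all 4 were lower in MM. They were Mbd1, Lpin1, Eif4ebp3 and Zbtb16. This fit took the 4 MM and 4 CM libraries together with the 8 female libraries of that age, which added to the estimate of the spread. In a fit of the 8 male libraries only, Eif4ebp3 alone was called (FDR = 0.0293), and the FDR was 0.0628 for Lpin1, 0.0967 for Mbd1 and 0.41 for Zbtb16. The methods of the study name edgeR but not which of its tests, and the likelihood ratio test of the same counts called 58 genes (0.409%), 27 higher (0.19%) and 31 lower (0.218%) in MM. Of these 58 genes, 51 code for protein and 51 had no overlap between the 4 MM and the 4 CM libraries, as did 3% of all genes tested. The called genes that were lower had a median level of 30.2 CPM and those that were higher 1.05 CPM, and 9 of the 58 lay under 1 CPM in both groups. At an unadjusted quasi-likelihood p below 0.05 there were 856 genes (6.03%), 521 higher (3.67%) and 335 lower (2.36%). Over all genes the median log2 fold change was 0.03. Without MM 2 and CM 2, Mbd1 alone was called by the quasi-likelihood test and the other 3 genes had an FDR of 0.0561, and the likelihood ratio test called 34 genes. Without CM 1 the same counts were 19 and 81, and without MM 3 they were 2 and 31. In what follows, FDR is that of the quasi-likelihood test, LRT FDR that of the likelihood ratio test, and a fold change is MM relative to CM on the log2 scale with its standard error (SE).

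Mbd1 encodes a protein that binds methylated CpG and works with H3K9 methyltransferases. It lies on chromosome 18 (mm10, chr18:74267605-74282732, plus strand). Its levels in the 4 MM libraries were 49.2, 56.05, 63.5 and 60.8 CPM, and in the 4 CM libraries 95.0, 179, 148 and 138 CPM. Every MM library was below every CM library (57.4 ± 6.27 against 140 ± 34.9 CPM, mean ± SD, n = 4 each; log2 fold change -1.29 ± 0.15, FDR = 0.00288). In the 8 female libraries of that age Mbd1 ranged from 32.6 to 42.5 CPM, so that all 4 groups ranked with CM highest and MM second.

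Lpin1 encodes the phosphatidate phosphatase lipin-1, which makes diacylglycerol for triglyceride synthesis and acts in the nucleus as a coactivator of PPARα, and its transcript is known to rise with fasting and glucocorticoids (chr12:16535669-16646966, minus strand). The MM libraries held 215, 174, 217 and 173 CPM and the CM libraries 389, 585, 889 and 719 CPM. MM was lower without overlap (195 ± 24.6 against 646 ± 211 CPM; log2 fold change -1.73 ± 0.23, FDR = 0.00542). Female libraries lay between 101 and 189 CPM, and 2 of the 4 MM libraries but none of the CM libraries fell in that range.

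Eif4ebp3 encodes a protein that binds eIF4E and restrains cap-dependent translation (chr18:36664060-36665917, plus strand). It was at 10.5, 10.0, 6.86 and 7.16 CPM in MM and at 24.0, 31.5, 34.2 and 24.2 CPM in CM. The groups did not overlap (8.64 ± 1.89 against 28.5 ± 5.16 CPM; log2 fold change -1.72 ± 0.24, FDR = 0.00569). Without MM 3 its FDR was 0.0534. The gene lies inside Maskbp3 on the same strand (log2 fold change 0.13 for Maskbp3), so the reads of the pair may not be fully separable. The female libraries ranged from 2.52 to 8.42 CPM, which held 2 of the 4 MM libraries and none of CM.

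Zbtb16 encodes the zinc finger repressor PLZF, a target of the glucocorticoid receptor in many tissues (chr9:48654297-48836222, minus strand). MM libraries held 20.5, 10.1, 11.4 and 12.3 CPM and CM libraries 32.5, 24.3, 51.2 and 53.9 CPM, again without overlap (13.6 ± 4.71 against 40.45 ± 14.4 CPM; log2 fold change -1.57 ± 0.26, FDR = 0.038). This call was the least stable of the 4, since leaving out CM 3, CM 4, MM 2, MM 3 or MM 4 raised its FDR to 0.128, 0.112, 0.0727, 0.212 and 0.116. The female range was 8.9 to 14.1 CPM and held 3 of the 4 MM libraries.

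**Figure D2:**
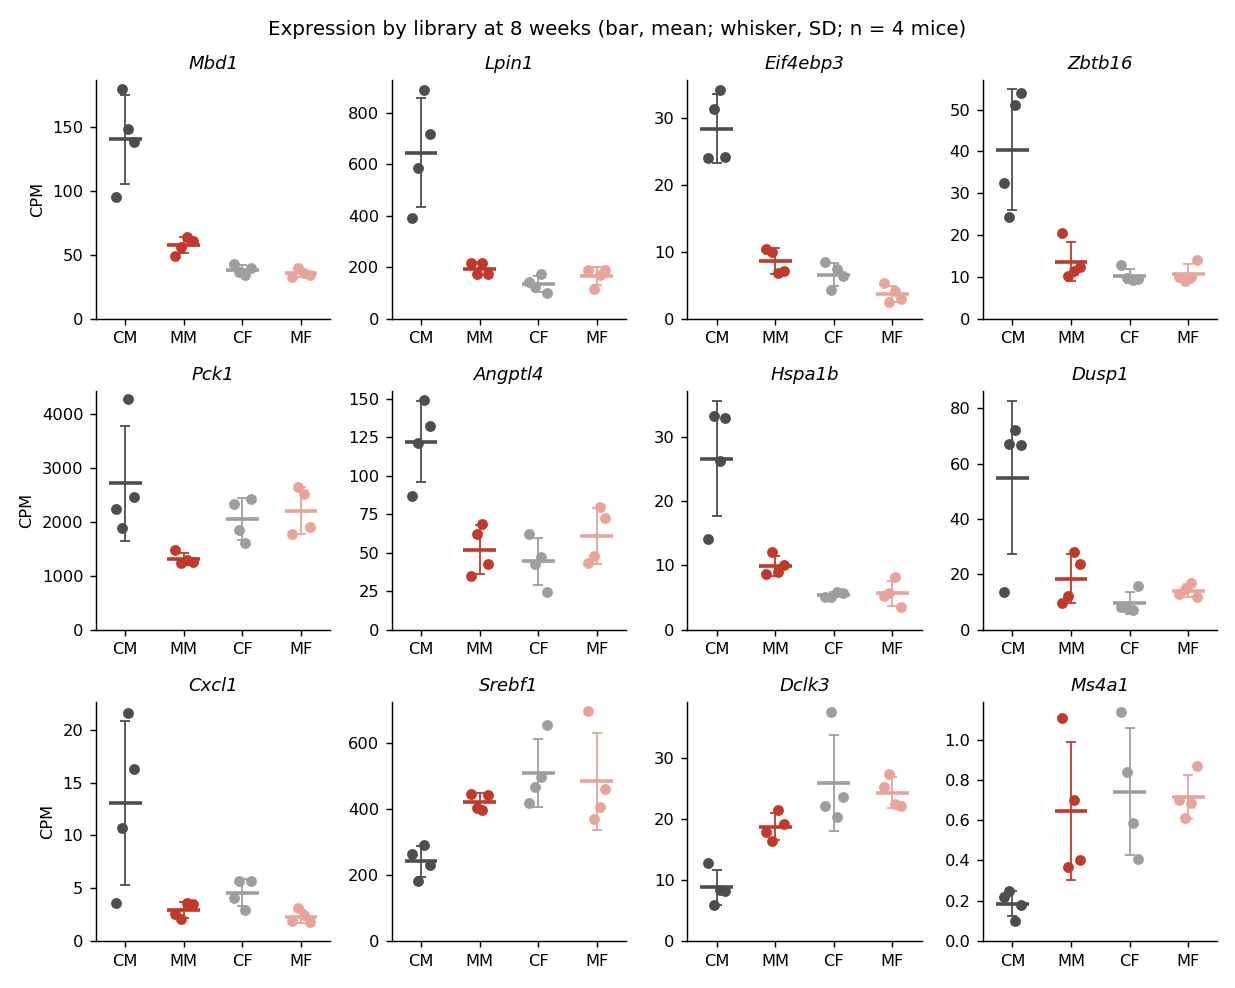
CPM of 12 genes in the 4 groups at 8 weeks (points, mice; bar, mean; whisker, SD; n = 4; linear axes from 0). For Mbd1, Lpin1, Eif4ebp3, Zbtb16 and Hspa1b the CM points lie above the MM, CF and MF points, while for Srebf1, Dclk3 and Ms4a1 the CM points are the lowest.

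The gluconeogenesis and fasting list had 20 genes tested, 15 of them lower and 5 higher in MM. Of the 20, 3 were called lower by the likelihood ratio test (Lpin1, Pck1 and Angptl4), 7 were lower and 1 higher at an unadjusted p below 0.05, and the median log2 fold change was -0.41 against 0.03 for all genes. Pck1, which encodes the cytosolic PEPCK that commits oxaloacetate to gluconeogenesis, was at 1481, 1234, 1292 and 1253 CPM in MM and at 2243, 1884, 4268 and 2452 CPM in CM. All 4 MM libraries were below the lowest CM library, and CM 3 was far above the rest (log2 fold change -1.04 ± 0.22, FDR = 0.144, LRT FDR = 0.00468). The female range of 1607 to 2644 CPM held 3 of the CM libraries and none of MM. Angptl4, an inhibitor of lipoprotein lipase induced by fatty acids through PPARs, was at 35.0, 62.3, 68.4 and 42.5 CPM in MM against 87.0, 121, 149 and 132 CPM in CM. The groups did not overlap (log2 fold change -1.23 ± 0.28, FDR = 0.183, LRT FDR = 0.0109), and all 4 MM libraries but no CM library lay within the female range. Igfbp1, an insulin-repressed IGF binding protein, overlapped between the groups. It was at 11.4, 13.9, 38.4 and 13.4 CPM in MM and at 12.6, 30.3, 126 and 78.5 CPM in CM (log2 fold change -1.68 ± 0.54, FDR = 0.475). Without CM 3, 1 gene of the list was called by the likelihood ratio test, 4 were lower at an unadjusted p below 0.05 by the same test, and the median was -0.24. The summed level of the list was 5255 to 6197 CPM in MM and 6539 to 11320 CPM in CM.

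The list of glucocorticoid receptor targets shares only Tat with the fasting list. Of 17 targets tested, 15 were lower in MM and 2 higher, 3 were called lower by the likelihood ratio test (Zbtb16, Pfkfb3 and Dusp1), 6 were lower at an unadjusted p below 0.05, and the median was -0.37. Pfkfb3, whose product raises the fructose 2,6-bisphosphate that drives glycolysis, was at 18.1, 24.6, 28.8 and 34.0 CPM in MM and 45.1, 80.5, 48.0 and 62.8 CPM in CM (log2 fold change -1.17 ± 0.24, FDR = 0.125, LRT FDR = 0.00249). Errfi1, an inhibitor of EGF receptor signalling, averaged 826 ± 120 against 1300 ± 228 CPM without overlap but was called by neither test (log2 fold change -0.65 ± 0.17, FDR = 0.279, LRT FDR = 0.0788). Library CM 1 did not follow the other CM livers. Its mean deviation over the list was -0.22, inside the MM range of -0.41 to -0.14, whereas CM 2 to CM 4 lay between 0.23 and 0.56. Without MM 2 and CM 2, 1 gene of the list was called, without CM 1 there were 4 (median -0.52), and without any other single mouse 2 or 3 (median -0.55 without MM 1).

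The immediate early and MAPK feedback list, of transcription factors and phosphatases induced within minutes by growth factors or stress, had the lowest median among the 33 lists apart from 2 lists of under 5 genes (-0.58). Of 21 genes tested, 19 were lower in MM, 10 of them at an unadjusted p below 0.05, and 3 were called by the likelihood ratio test (Dusp4, Maff and Dusp1). Dusp4, a phosphatase of nuclear ERK, was at 0.911, 1.54, 1.56 and 2.28 CPM in MM and at 3.37, 5.20, 3.41 and 3.68 CPM in CM (log2 fold change -1.34 ± 0.24, FDR = 0.0631, LRT FDR = 0.00107). Dusp1, a MAP kinase phosphatase that is also a glucocorticoid target, was at 9.75, 12.3, 28.0 and 23.7 CPM in MM and at 13.6, 67.1, 72.0 and 66.6 CPM in CM. Here 3 CM livers stood above every MM liver and CM 1 lay among the MM livers (log2 fold change -1.57 ± 0.42, FDR = 0.292, LRT FDR = 0.0483). Maff, a small MAF factor, did not overlap (4.425 ± 0.71 against 8.40 ± 1.64 CPM; log2 fold change -0.93 ± 0.23, LRT FDR = 0.0302), and neither did Spry4, a feedback inhibitor of ERK signalling that was not called (6.30 ± 0.691 against 11.3 ± 3.38 CPM; LRT FDR = 0.103) and whose female range of 7.50 to 18.8 CPM held all 4 CM libraries and none of MM. Over the list CM 1 again scored within the MM range (-0.25 against -0.39 to -0.20) and CM 2 to CM 4 scored 0.45 to 0.51. Without CM 1, all 21 genes were lower in MM, 14 at an unadjusted p below 0.05 and 5 called, by the likelihood ratio test. The number called was 1 without CM 2, CM 3, CM 4, MM 1 or MM 4, and also without MM 2 and CM 2 together, and it was 2 without MM 2 or MM 3.

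**Figure D3:**
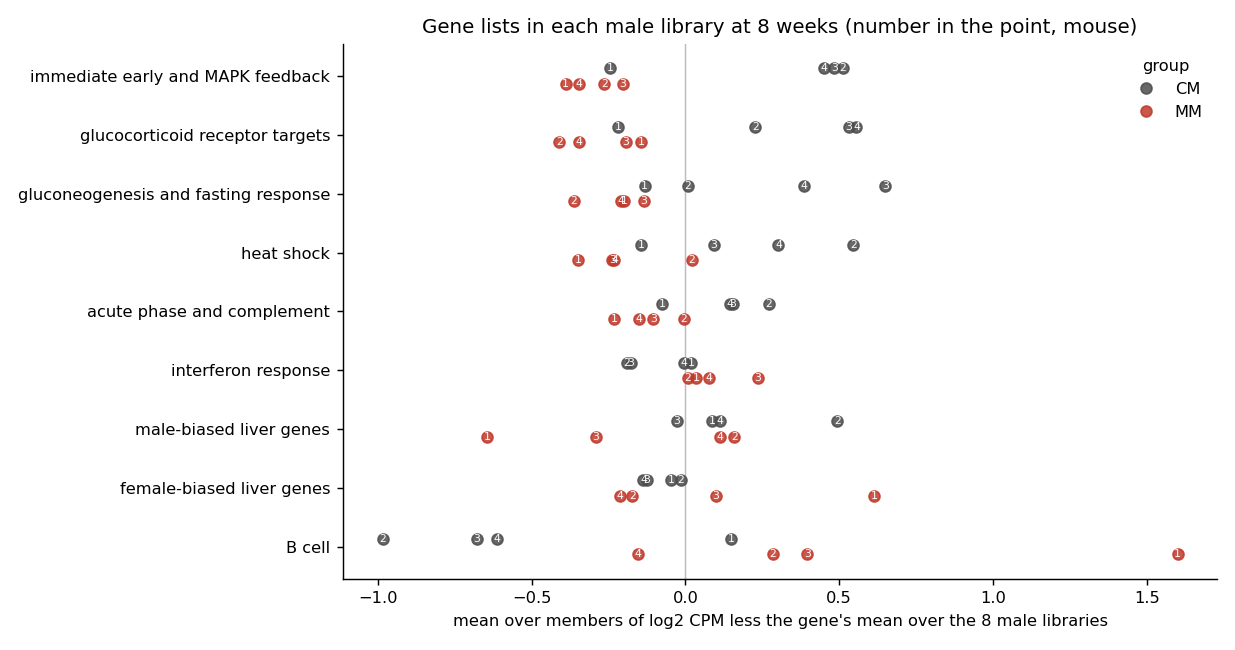
Mean over the members of each gene list of log2 CPM less the gene's mean over the 8 male libraries (horizontal axis, log2), with 1 point per mouse and its number inside. For the immediate early, glucocorticoid and fasting lists the MM points lie left of CM 2 to CM 4 while CM 1 lies among or next to them (-0.25, -0.22 and -0.13), and MM 1 lies at the far right for B cell (1.6) and female-biased genes (0.61).

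Heat shock genes were lower in 17 of 18 cases (median -0.34), with Hspa1b called by the likelihood ratio test and 6 genes lower at an unadjusted p below 0.05. Hspa1b, an inducible HSP70, was at 8.72, 12.1, 8.93 and 10.1 CPM in MM and at 14.2, 33.3, 26.2 and 32.9 CPM in CM (log2 fold change -1.42 ± 0.25, FDR = 0.0547, LRT FDR = 0.000122). The groups did not overlap, with CM 1 lowest in CM. Reads shared with its near-identical neighbour Hspa1a were dropped as multi-mapped, so the level of each is uncertain. Hsph1, an HSP110 co-chaperone, was at 41.5 ± 5.11 against 73.6 ± 29.1 CPM and Bag3, a chaperone adaptor, at 41.0 ± 1.89 against 56.8 ± 12.1 CPM; neither was called (LRT FDR = 0.16 and 0.358). Genes of the unfolded protein and integrated stress responses were lower in 15 of 21 cases (median -0.17), 4 of them at an unadjusted p below 0.05, and Asns, the asparagine synthetase of the same response, was higher at that level (log2 fold change 0.89 ± 0.38, FDR = 0.737). The median was -0.04 without CM 2, -0.07 without MM 1 and -0.33 without MM 2. Among the lower genes Slc38a2, an amino acid transporter, and Herpud1, a factor of ER-associated degradation, were called lower by the likelihood ratio test (log2 fold change -0.77 ± 0.17 and -0.62 ± 0.15). Neither was called without MM 2 and CM 2, without CM 3 or without CM 4. Without CM 1 the heat shock list had 3 genes called by that test, and without CM 2 its median was -0.21.

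Promoter windows of 300 bases (250 before to 50 after the start site, RefSeq on GRCm38.p6) could be matched for 10588 of the genes tested, 20 of the 31 called lower and 16 of the 27 called higher by the likelihood ratio test. Motifs of the pathways above were searched on both strands, and a gene was counted once if any of its windows held the motif. The cAMP response element TGACGTCA occurred in 2 of the 20 lower genes (10%), in none of the 16 higher genes and in 3.42% of all genes with a window. The heat shock element GAANNTTC occurred in 2 of 20 lower (10%) and 4 of 16 higher genes (25%) against 7.18% of all genes with a window, and the E-box CACGTG in 15% and 18.8% against 11.6%. The D-box TTATGTAA occurred in no called gene against 0.737%, and the glucocorticoid response element, searched as an inverted repeat with a spacer, in no called gene against 0.397%. The sites of 3 genes described above are shown, since they place the searched letters next to the start of genes that were lower in MM; capitals mark the motif, read 5′ to 3′ on the strand of the gene.
Hspa1b, chr17:34959324-34959353, minus strand, 100 bases before the start: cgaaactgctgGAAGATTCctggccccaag
Dusp1, chr17:26508597-26508626, minus strand, 139 bases before the start: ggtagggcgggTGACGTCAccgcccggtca
Maff, chr15:79347480-79347509, plus strand, 25 bases before the start: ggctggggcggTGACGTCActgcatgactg
A match describes the letters in the window and not the occupancy of a factor.

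Inflammatory genes of the acute phase and complement list were lower in 17 of 23 cases, with a median of -0.10. The genes called by the likelihood ratio test were Cxcl1, Steap4 and Il1r1, all lower, and of the list only 1 was called without CM 2, CM 4 or MM 3 or without MM 2 and CM 2 together. Its median was -0.05 without CM 2 and -0.22 without MM 2. Cxcl1, a neutrophil-attracting chemokine, was at 2.51, 2.11, 3.57 and 3.52 CPM in MM and 3.56, 10.7, 21.6 and 16.3 CPM in CM. MM and CM overlapped only through CM 1 (log2 fold change -2.15 ± 0.40, FDR = 0.0631, LRT FDR = 0.000198). Steap4, a metalloreductase induced by inflammation, was at 99.15 ± 25.7 against 185 ± 53.4 CPM (log2 fold change -0.90 ± 0.21, LRT FDR = 0.0177) and Il1r1, the signalling receptor of interleukin 1, at 28.9 ± 6.44 against 57.2 ± 14.9 CPM (log2 fold change -0.98 ± 0.23, LRT FDR = 0.0207). Il1r1 shares its locus with Gm38070, and reads of the pair cannot be fully told apart. The interferon response list went the other way: 28 of 32 genes were higher in MM with a median of 0.18, 3 at an unadjusted p below 0.05, and none was called. The median was 0.09 without MM 3 and 0.10 without CM 2. Irf1, a transcription factor induced by interferon, was at 33.9 ± 2.80 against 25.5 ± 3.83 CPM (log2 fold change 0.41 ± 0.13, FDR = 0.501).

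Other genes called lower by the likelihood ratio test also did not overlap between the groups. Kyat3, a kynurenine aminotransferase, was at 152 ± 22.0 against 248 ± 28.4 CPM (log2 fold change -0.71 ± 0.13, LRT FDR = 0.00249). Its female range of 187 to 318 CPM held all 4 CM libraries and none of MM. Irf2bp2, a transcriptional corepressor, was at 21.2 ± 3.21 against 39.3 ± 10.5 CPM (-0.89 ± 0.16, LRT FDR = 0.000753), and Sdc4, a cell surface heparan sulfate proteoglycan, at 324 ± 47.4 against 483 ± 77.2 CPM (-0.58 ± 0.12, LRT FDR = 0.0211). Apbb3, which lies 5236 bases from Eif4ebp3 on chromosome 18, was at 16.9, 18.1, 18.3 and 15.5 CPM in MM and at 23.7, 28.8, 27.7 and 26.5 CPM in CM (log2 fold change -0.63 ± 0.11, FDR = 0.0631, LRT FDR = 0.00217). Its spread within each group was small, with SDs of 1.29 and 2.23 CPM.

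Among genes higher in MM, Srebf1 encodes SREBP-1, the insulin-driven regulator of fatty acid synthesis (chr11:60199089-60222581, minus strand). It was at 446, 402, 397 and 441 CPM in MM and at 263, 181, 291 and 229.5 CPM in CM. Every MM liver exceeded every CM liver (421 ± 25.5 against 241 ± 47.0 CPM; log2 fold change 0.81 ± 0.19, FDR = 0.191, LRT FDR = 0.0277), and all 4 MM livers but no CM liver lay in the female range of 370 to 697 CPM. Srebf1 overlaps Rai1 on the other strand, and whether counting used strand is not given in the sources used here. The insulin and lipogenesis list as a whole was close to the background: 15 of 20 genes were higher, Srebf1 alone was called, and the median was 0.06. Without MM 1, 9 genes were higher and 11 lower (median -0.04), and without MM 3 the median was 0.13. No gene of the list was called by the likelihood ratio test on leaving out MM 2 and CM 2 together or any single mouse other than CM 3. No gene of cholesterol synthesis (23 genes, median 0.05), fatty acid oxidation and ketogenesis (26, 0.04), lipid droplets and uptake (18, 0.11), bile acid synthesis and transport (19, -0.02) or glutathione and NRF2 (20, 0.05) was called by either test. Their medians ranged from -0.10 to 0.19 when 1 mouse was left out. Across those 5 lists 1 gene was higher and 1 lower at an unadjusted p below 0.05.

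Dclk3, a doublecortin-like kinase, was the only gene higher in MM among the 13 with an FDR below 0.1. It was at 17.9, 16.3, 21.5 and 19.1 CPM in MM and at 12.7, 5.90, 8.28 and 8.11 CPM in CM, without overlap (log2 fold change 1.09 ± 0.21, FDR = 0.0982, LRT FDR = 0.00143). Smad6, an inhibitory SMAD of the BMP pathway, was at 6.62, 6.10, 6.25 and 4.18 CPM in MM against 3.43, 1.72, 3.48 and 2.63 CPM in CM (log2 fold change 1.03 ± 0.23, LRT FDR = 0.0115). It was the only gene called among 20 of the BMP-SMAD and iron list, whose median was 0.17 (0.05 without MM 2), and was not called without CM 2, CM 4, MM 1 or MM 3 or without MM 2 and CM 2 together. In the same list Hamp, the iron hormone hepcidin, was at 921 ± 147 against 661 ± 120 CPM (log2 fold change 0.48 ± 0.36, FDR = 1). The cell cycle list held Wee1, a kinase that delays mitosis (16.7 ± 3.65 against 10.3 ± 0.38 CPM; log2 fold change 0.70 ± 0.16, LRT FDR = 0.0273), and Gas1, a growth arrest gene (11.7 ± 1.69 against 6.28 ± 2.30 CPM; 0.89 ± 0.22, LRT FDR = 0.0275). Both were higher in MM without overlap, but neither was called without CM 2, CM 3, CM 4, MM 3 or MM 4, and 1 of them without any other mouse. The median over its 21 genes was 0.11, with 0.01 on leaving out MM 1 and 0.26 on leaving out MM 3. Slc35f2, a nucleoside-type transporter of low level, averaged 1.33 ± 0.317 against 0.416 ± 0.187 CPM (log2 fold change 1.63 ± 0.34, LRT FDR = 0.0115), and the cAMP phosphodiesterase Pde4b was at 18.6 ± 4.11 against 10.5 ± 1.98 CPM (0.82 ± 0.18, LRT FDR = 0.0134).

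B cell transcripts were higher in MM for all 11 markers tested of 12 listed (median 1.31), 9 of them at an unadjusted p below 0.05, and Ms4a1 and Fcer2a were called by the likelihood ratio test. In bulk liver, more B cells and more RNA per B cell cannot be told apart. Ms4a1, which encodes CD20, was at 1.11, 0.366, 0.701 and 0.404 CPM in MM and at 0.218, 0.246, 0.0994 and 0.180 CPM in CM (log2 fold change 1.87 ± 0.46, FDR = 0.213, LRT FDR = 0.0207). The groups did not overlap, but all values were near or below 1 CPM and MM 1 was the highest. Fcer2a, the low-affinity IgE receptor CD23, was at 1.65, 0.366, 0.579 and 0.367 CPM in MM and at 0.343, 0.0819, 0.133 and 0.15 CPM in CM (log2 fold change 2.11 ± 0.58, LRT FDR = 0.0453). Pax5, the B lineage factor, was at 2.61 CPM in MM 1 and at 0.488 to 0.762 CPM in the other MM livers, against 0.041 to 0.717 CPM in CM. The summed level of the list was 13.6 to 39.9 CPM in MM and 9.67 to 18.1 CPM in CM, with the highest sum in MM 1. Without MM 1 no B cell gene was called, 2 of 11 passed an unadjusted p below 0.05, and the median was 0.58. None was called without CM 2, CM 3, CM 4 or MM 3 either.

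The lists of other cell types had no calls and differed in direction. T and NK cell markers were higher in 12 of 13 cases (median 0.36; summed level 6.90 to 10.7 CPM in MM, 6.43 to 8.59 CPM in CM; median 0.16 without MM 3 and 0.60 without MM 4) and Kupffer cell and macrophage markers in 11 of 12 (0.31; 334 to 539 against 243 to 498 CPM). Endothelial markers were higher in 11 of 12 (0.19) and stellate cell and fibroblast markers in 9 of 12 (0.05). Medians of these lists moved with single mice: the macrophage median ranged from 0.10 (without CM 2) to 0.47 (without CM 4) and was 0.08 without MM 2 and CM 2 together, the endothelial median ranged from 0.08 (without MM 1) to 0.34 (without MM 4), and the stellate median from -0.03 (without CM 1) to 0.16 (without CM 4). The 9 hepatocyte markers tested had a median of -0.05, with Hnf4a, a master regulator of hepatocyte identity, at 593 ± 59.2 against 779 ± 62.5 CPM without overlap but not called (log2 fold change -0.39 ± 0.11, FDR = 0.35). Of 11 neutrophil markers 3 had enough reads to be tested, 1 higher and 2 lower (median -0.89). The 4 muscle markers tested were lower (-0.70), red cell precursor markers were lower in 5 of 7 cases (-0.12) and cholangiocyte markers in 5 of 8 (-0.01). These medians moved too. The red cell median was -0.52 without MM 1 and 0.25 without CM 2, where 5 of 7 were higher. The cholangiocyte median ranged from -0.19 (without CM 1) to 0.21 (without CM 4). Without MM 1 and without CM 2, the muscle median was -1.29 and -0.42 and the neutrophil median -1.20 and -0.52.

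Male-biased genes were lower in 28 of 30 cases (median -0.22, 0 called). Female-biased genes were higher in 20 and lower in 15 of 36 cases (56.3% of all genes were higher), with a median of 0.23. At an unadjusted p below 0.05, 4 of the female-biased genes were higher and 2 lower. Cyp2b9, Cyp2a4 and Abcd2 were called higher by the likelihood ratio test. The filter of 15 reads in 4 libraries counted female libraries too, so genes nearly absent from males, such as Cyp2b9, could be tested. The direction counts and median of the female-biased list may therefore rest partly on few male reads. Cyp2a4, a steroid 15α-hydroxylase of female liver, was at 49.1 CPM in MM 1 and at 0.955 to 2.50 CPM in the other MM livers, against 0.663 to 1.53 CPM in CM and 902 to 1781 CPM in females. Cyp2b9 had 60, 6, 14 and 0 reads in MM and 0, 0, 1 and 2 reads in CM, too few in CM for a fold change to be read. Reads of these Cyp2a and Cyp2b families are shared between close copies and their levels are uncertain. Abcd2, a peroxisomal transporter of very long-chain fatty acids, was at 62.9, 22.2, 35.8 and 31.4 CPM in MM and at 20.8, 11.5, 18.3 and 21.1 CPM in CM, higher in MM without overlap and far below the female range of 101 to 160 CPM (log2 fold change 1.09 ± 0.26, LRT FDR = 0.018). Without CM 2 the male-biased median was -0.10 with 22 of 30 genes lower, and without MM 2 it was -0.34. Without MM 1 the medians of the male-biased and female-biased lists were -0.06 and 0.04, with 0 and 1 gene called. The female-biased list also had 1 gene called without CM 2 or without CM 3.

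Because H3K9me3 was the chromatin mark studied in these livers, a list of genes for its writers, readers and erasers was examined, which also held genes of DNA methylation such as Mbd1 and Dnmt1. Of 19 tested, 15 were higher and 4 lower with a median of 0.08 (0.01 without MM 4 and 0.13 without MM 2). Mbd1 alone was called, and its product binds methylated CpG and is not itself a writer, reader or eraser of the mark. No clock gene separated the groups without overlap: 10 of 18 were higher and 8 lower (median 0.05, 0 called). The clock output genes Per3 (log2 fold change 0.55 ± 0.22, FDR = 0.683) and Hlf (0.31 ± 0.14, FDR = 0.785) were higher at an unadjusted p below 0.05 and no gene was lower. Leaving out 1 mouse moved the median between -0.03 (without CM 3) and 0.13 (without MM 2). Arntl was at 1.15 ± 0.367 against 1.13 ± 0.585 CPM, Dbp at 202 ± 41.4 against 159 ± 31.6 CPM and Per1, which is also a glucocorticoid target, at 34.1 ± 7.16 against 44.1 ± 9.36 CPM. With an index of clock phase as a covariate, 4 genes were again called, 3 of them the same, and Zbtb16 had an FDR of 0.0732. Ribosomal protein genes had a median of 0.03 over 81 genes, of which 51 were higher, but without MM 2 and CM 2 the median was -0.21 and 13 were higher. Of 14 pericentral genes 6 were higher and 8 lower with a median of -0.15, and none was called, although 2 were called higher by the likelihood ratio test without MM 2 and 1 without CM 1 or without MM 2 and CM 2 together. Without MM 1 the median was -0.06. At an unadjusted p below 0.05, Rnf43, Tbx3 and Axin2 were higher and Cyp2c37, a cytochrome P450, was lower (log2 fold change -0.50 ± 0.19, FDR = 0.61). Rnf43, a feedback inhibitor of Wnt receptors, was at 29.8 ± 7.38 against 16.9 ± 4.82 CPM (log2 fold change 0.82 ± 0.21, LRT FDR = 0.0535) and Axin2, a feedback inhibitor of β-catenin, at 7.83 ± 2.53 against 5.09 ± 0.775 CPM (0.63 ± 0.23, FDR = 0.593). Of 14 periportal genes 12 were lower, with a median of -0.17 (-0.37 without MM 1) and Pck1 called by the likelihood ratio test, a call lost without CM 3.

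Whether females changed in the same way was asked at the same age, with 4 MO (MF) and 4 control (CF) daughters. The quasi-likelihood test called 0 genes between MF and CF (0% of genes; 331 at an unadjusted p below 0.05), and the likelihood ratio test called 2. The 58 genes called in males, which were chosen for their change there, had a median absolute log2 fold change of 0.15 in females, where that of all genes was 0.10, and 39 of them had the same sign in both sexes, as did 56.5% of all genes. The difference between the male and the female effect was tested as an interaction. By the quasi-likelihood test 0 genes passed an FDR of 0.05 (0%), with 394 at an unadjusted p below 0.05 (2.78%), and DESeq2 called 3 genes. The likelihood ratio test called 4 (0.0282%): Lpin1 (male less female log2 fold change -2.03, LRT FDR = 1.8e-05), Mbd1 (-1.18, LRT FDR = 0.00426), Zbtb16 (-1.63, LRT FDR = 0.0409) and Cyp2b9. The MF and CF means of Lpin1 were 165 and 134 CPM, of Mbd1 35.5 and 38.2 CPM and of Zbtb16 10.7 and 10.3 CPM. Eif4ebp3 averaged 3.71 CPM in MF against 6.61 CPM in CF, a difference in the same direction as in males that was not called (log2 fold change -0.81). For Dusp1 the females stood at 14.1 and 9.78 CPM, for Hspa1b at 5.71 and 5.44 CPM, for Srebf1 at 483 and 508 CPM, and for Dclk3 at 24.2 and 25.9 CPM. By their means, CM stood farthest from the other groups in these 8 genes, but MM did for other genes called in males. Pck1 averaged 2206 CPM in MF and 2052 CPM in CF against 1315 CPM in MM, Kyat3 216 and 292 CPM against 152 CPM, and Slc35f2 0.176 and 0.136 CPM against 1.33 CPM.

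**Figure D4:**
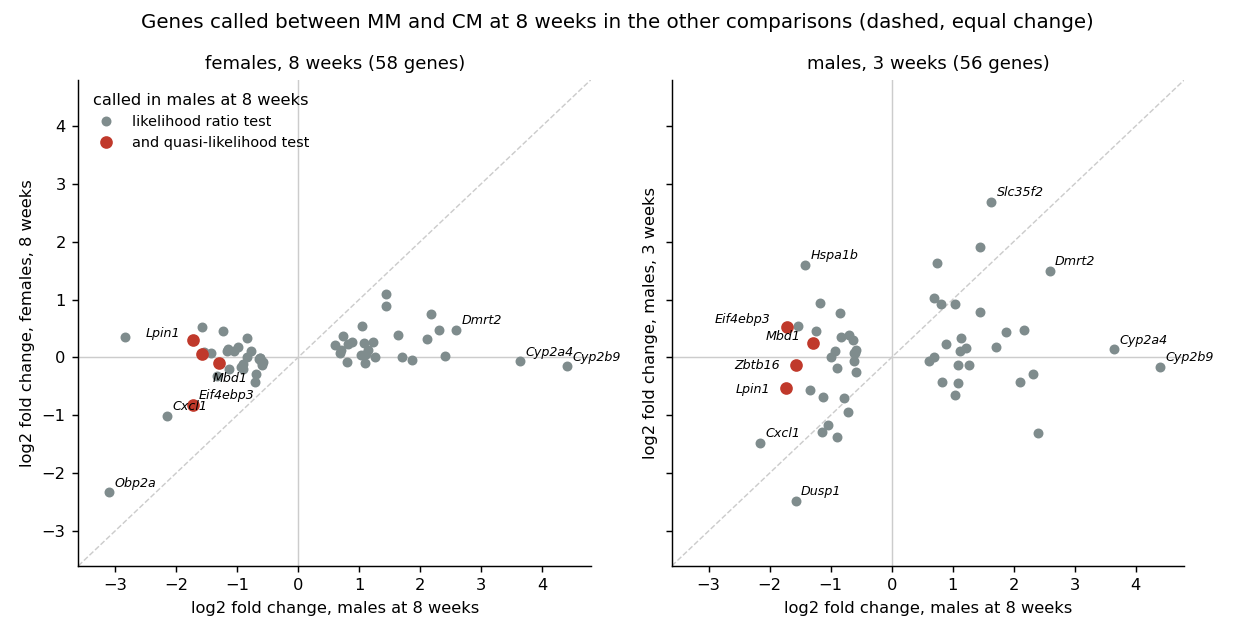
Log2 fold change of the genes called between MM and CM at 8 weeks by the likelihood ratio test (horizontal axis) against that in females at 8 weeks (left, 58 genes) and in males at 3 weeks (right, 56 genes); red points were also called by the quasi-likelihood test and the dashed line marks equal change. In females most points lie near 0, and at 3 weeks they scatter with 31 of 56 in the same direction.

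At 3 weeks, before weaning and in other mice, the same test called 588 of 15097 genes between MM and CM (3.89%; 1.65% higher and 2.25% lower), and the likelihood ratio test called 723 (4.79%). The libraries of that age were made with another kit, so the ages were fitted apart. Of the 588 genes, 564 were tested at 8 weeks. There, 285 of them (50.5%) kept their sign, as did 51% of all genes tested at both ages, and their median absolute log2 fold change was 0.67 at 3 weeks and 0.13 at 8 weeks, where that of all genes was 0.13. None of the 564 was called at 8 weeks by the quasi-likelihood test (0.0282% of all genes tested), and 51 (9.04%) had an unadjusted p below 0.05 (6.03% of all genes tested). The likelihood ratio test called 4, which is 0.709% of the 3-week calls (0.409% of all genes tested) and 6.9% of the 8-week calls. The cholesterol synthesis list had 23 of 23 genes called lower at 3 weeks (median -2.27) and a median of 0.05 in males at 8 weeks. Fatty acid oxidation had 15 of 26 genes called higher at 3 weeks (median 0.47), glutathione and NRF2 genes had 8 of 20 called lower (-0.75), and neither list had a call at 8 weeks. At 3 weeks Hamp averaged 0.397 CPM in MM against 279 CPM in CM (log2 fold change -9.57, FDR = 9.66e-07), whereas at 8 weeks no MM liver fell below 702 CPM.

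At 8 weeks the likelihood ratio test called 0.409% of all genes tested. By that test at both ages, 13 genes were shared among 688 calls of 3 weeks that were tested at 8 weeks and the 58 of 8 weeks. Of these 13, 12 had the same direction at both ages (51% of all genes tested at both ages). Those described above were Srebf1 (log2 fold change 0.93 at 3 weeks, FDR = 0.0422), Slc35f2 (2.69, FDR = 0.00108), Irf2bp2 (-1.37, FDR = 0.0529), Kyat3 (-0.94, FDR = 0.0531), Cxcl1 (-1.48, FDR = 0.0997), Slc38a2 (-0.70, FDR = 0.0708) and Dusp1 (-2.48, FDR = 0.0599). Hspa1b was the gene of opposite direction, with a log2 fold change of 1.60 at 3 weeks (FDR = 0.0378). The 4 genes called by the quasi-likelihood test at 8 weeks had 3-week fold changes of 0.24 for Mbd1, -0.53 for Lpin1, 0.53 for Eif4ebp3 and -0.13 for Zbtb16, none of them called. As lists, fasting genes had a median of -0.48 at 3 weeks (2 called higher and 3 lower) and -0.41 at 8 weeks, glucocorticoid targets -0.43 and -0.37, and immediate early genes -0.42 and -0.58. Other lists with 3-week medians of that size had smaller ones or the opposite sign at 8 weeks. These were BMP-SMAD and iron (-0.51 and 0.17), acute phase and complement (-0.45 and -0.10) and periportal genes (-0.50 and -0.17). Heat shock genes had medians of opposite sign, 0.31 at 3 weeks with 3 of 18 called higher and -0.34 at 8 weeks.

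**Figure D5:**
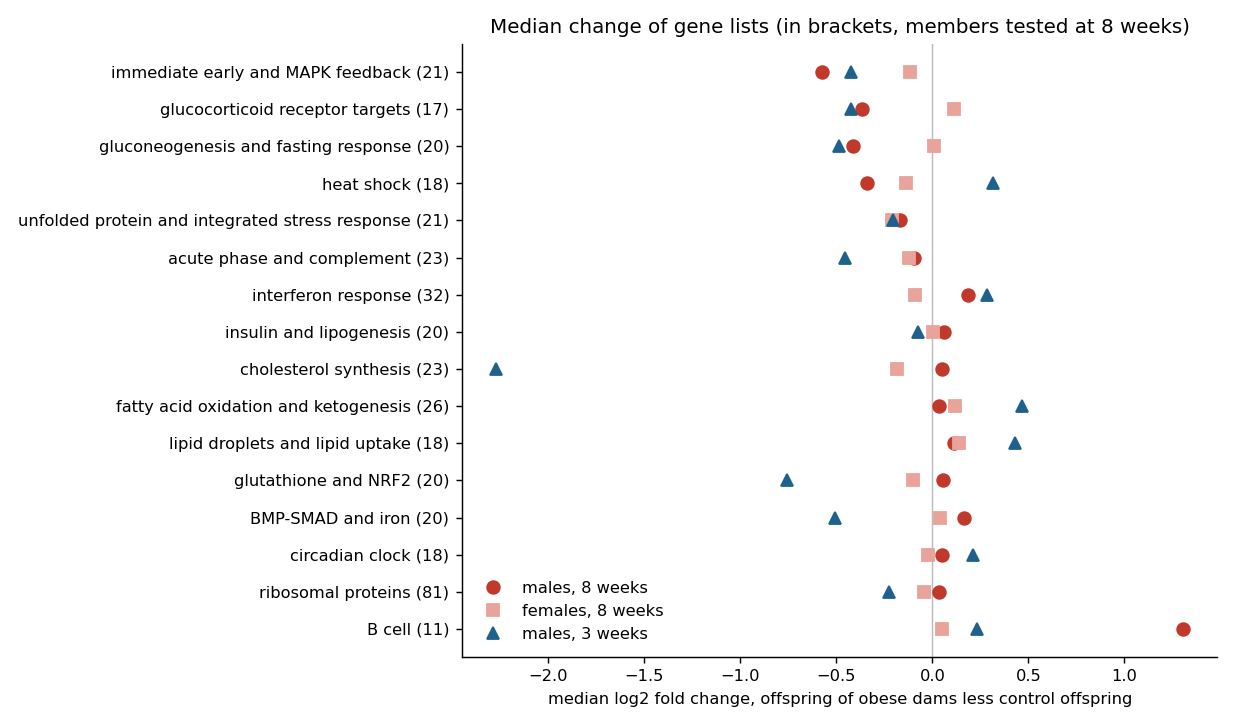
Median log2 fold change, MO less control offspring, of gene lists in males at 8 weeks (circles), females at 8 weeks (squares) and males at 3 weeks (triangles), with the number of members tested at 8 weeks in brackets. The fasting, glucocorticoid and immediate early lists lie left of 0 in males at both ages and between -0.12 and 0.11 in females, while cholesterol synthesis lies at -2.27 in males at 3 weeks, 0.05 in males at 8 weeks and -0.18 in females at 8 weeks.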

How the data were processed

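Per the study's methods and the submitters' processing notes, the authors aligned paired-end reads to mm10 with STAR, counted reads per gene with featureCounts without multi-mapped reads, and used edgeR with TMM scaling; for the RNA-seq data, versions and strand setting are not given in the sources used here. The deposited raw read counts of the 16 libraries of 8 weeks were analysed. The log2 CPM values deposited by the authors equalled those recomputed with a prior count of 2 (largest difference 5e-09); the deposited fold changes, p-values and FDR of the authors' own comparisons were not used. Genes reaching 15 reads in 4 or more libraries were tested in edgeR 4.0.16 (R 4.3.3) with 1 mean per group and Benjamini-Hochberg adjustment at 0.05, by the quasi-likelihood test and, as a named alternative, the likelihood ratio test. Library depth was 26726861 to 40062768 reads, so before TMM scaling 1 CPM stood for about 27 to 40 reads per library. The TMM factors of the 8 male libraries ran from 0.891 to 1.05, and precision is limited by 4 mice per group. Further fits used DESeq2 1.42.0 and limma 3.58.1. Rows sharing a symbol with another row (6) were kept apart. The 3-week counts were fitted in the same way. Named genes were all called genes of the quasi-likelihood test, up to 30 of smallest p without overlap among those of the likelihood ratio test, the 4 of smallest p in each list, the 10 of smallest interaction p, and the checks Xist, Ddx3y, Reg3g (not listed at 8 weeks) and Hamp. Gene lists and the comparison were chosen with earlier results of these data known. Scripts were tested on simulated data. Figures were drawn with matplotlib 3.10.9.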

Additional observations from a re-analysis of the deposited data

Results flagged for a closer look

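Single mice lay far from the other 3 of their group in 10 of 112 groups of 4 values examined by Dixon's test, which by chance marks about 1 group in 20. In MM 1, Cyp2a4 was at 49.1 CPM (0.955 to 2.50 in the other MM livers), Fcer2a at 1.65 CPM (0.366 to 0.579) and Pax5 at 2.61 CPM (0.488 to 0.762). In MM 2, Slc38a2 was at 74.0 CPM (109 to 113), the share of reads from ribosomal protein genes was 2.22% (1.25% to 1.41%), the slope of level on gene length was -0.377 (0.105 to 0.16) and Ins2 was at 107 CPM (2.38 to 10.6). In MM 3, Igfbp1 was at 38.4 CPM (11.3 to 13.9). In CM 1, Dusp1 was at 13.6 CPM (66.6 to 72.0), and in CM 3, Tbx3 was at 11.8 CPM (16.3 to 17.1).

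The effect of maternal obesity differed between the sexes at 8 weeks for 4 genes by the interaction term of the likelihood ratio test. The male less female log2 fold change was -2.03 for Lpin1, -1.18 for Mbd1, -1.63 for Zbtb16 and 4.55 for Cyp2b9. The value for Cyp2b9 depends on the prior count, since the 4 CM libraries held 3 reads in all. None of the 4 passed by the quasi-likelihood test.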

How the results depend on the processing

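The count of 4 genes between MM and CM depended most on the test: the likelihood ratio test called 58, DESeq2 66, edgeR's exact test 53 and limma-voom with quality weights 25. With the 8 male libraries only, 1 gene was called (Eif4ebp3; the FDR was 0.0628 for Lpin1, 0.0967 for Mbd1 and 0.41 for Zbtb16), and without MM 2 and CM 2 also 1. Between 3 and 6 genes were called with RLE or total count scaling, other filters on low counts, plain limma-voom, robust or legacy quasi-likelihood fits and the clock covariate. Leaving out 1 mouse gave 2 (without MM 3) to 19 genes (without CM 1). The 58 of the likelihood ratio test became 34 without MM 2 and CM 2, and 25 (without CM 3 or CM 4) to 81 (without CM 1) when 1 mouse was left out, with 26, 31 and 32 without CM 2, MM 3 and MM 1. Over the 50 genes followed, these removals lost 115 and added 9 likelihood ratio calls and left 326 on the same side of the threshold. All 58 genes kept their sign in every fit that tested them, but they were chosen for their difference in these same libraries. In 51 of them the 4 MM and 4 CM libraries did not overlap, so leaving out a mouse could hardly reverse the sign. The counts of called list members without each mouse, or without MM 2 and CM 2, were chosen after seeing the data.

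The interaction count of 0 became 4 with the likelihood ratio test, 3 with DESeq2, and 0 to 2 when 1 mouse was left out (2 without CM 1, 1 without MF 2). At 3 weeks the 588 genes became 1062 with DESeq2 and 272 (without MM 3) to 804 (without MM 1) when 1 mouse was left out. Total count scaling shifted the median of all genes at 3 weeks to 0.11 from 0.01 and turned the split from 249 higher and 339 lower to 524 and 207, so the 3-week directions above are relative to TMM scaling. Lists with a median over 0.3 in size numbered 10, and 7 to 11 when 1 mouse was left out. Of the list medians under all alternatives, 385 moved by less than the spread between replicates and 11 by more. None of the 50 genes followed through all alternatives reversed its direction, but they were chosen by their p-values in these same data. Hamp, Cyp2b9 and the clock genes were not among them.

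The labels give MM and CM the same replicate numbers. Deviations of equally numbered mice correlated at 0.01, 0.39, -0.06 and -0.05, so the numbers were not treated as pairs. The 0.39 was that of MM 2 and CM 2, which both had negative slopes on gene length (-0.377 and -0.106). Whether these libraries were handled together was not tested. With a replicate block 6 genes were called, all among the 58. At these depths genes under 1 CPM rest on few reads in each library, and with 4 mice a group a missed call does not show an equal level.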

Other observations

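Of the 58 genes called by the likelihood ratio test, 8 formed 4 pairs of neighbours within 300 kb, a window chosen after the values were seen. Both members of each pair moved in the same direction. Eif4ebp3 and Apbb3 lay 5236 bases apart on chromosome 18 (log2 fold change -1.72 and -0.63). Within 150 kb on each side there were 16 genes, and beside the pair, which chose the window, Slc35a4 and Dnd1 were at an unadjusted p below 0.05 (6.03% of all genes were). Sra1, which lies between the pair, had a log2 fold change of -0.01. Wee1 and Swap70 lay 78424 bases apart on chromosome 7 (0.70 and 0.61), Cyp2b9 and Cyp2a4 96507 bases apart on the same chromosome, and AI662270 and Gm11427 overlapped on chromosome 11 (1.04 and 1.71), so that their reads may not be separable. Apart from Eif4ebp3, Apbb3, Wee1, Swap70 and the Cyp2 genes, the names in this paragraph were chosen after their values were seen.

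Among genes of the interaction that were called in neither sex, Irf1 was higher in MM than in CM (33.9 against 25.5 CPM) and at 41.0 CPM in MF against 54.6 CPM in CF, and Mat2a, which makes the methyl donor S-adenosylmethionine, was at 55.7 against 75.5 CPM in males and at 64.7 against 55.6 CPM in females (male less female log2 fold change 0.83 and -0.66, unadjusted p = 0.000392 and 0.0009, quasi-likelihood test, not past the adjustment over all genes). All 4 MM livers were above the CM livers for Irf1 and below them for Mat2a.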
